A study of Mus musculus with 2 samples.

Results

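Elastic fibres give skin, vessels and other soft tissues their recoil. An elastic fibre has a core of cross-linked elastin that is laid down on a scaffold of microfibrils, which are built from fibrillins and carry small microfibril-associated glycoproteins, while fibulins and emilin sit at the border between core and scaffold. Microfibrils also occur without elastin, as in the oxytalan fibres of the periodontal ligament, and they hold latent TGF-beta in the matrix. The elastic fibre and microfibril genes examined here were Eln, Fbn1, Fbn2, Fbln1, Fbln2, Fbln5, Mfap2, Mfap4, Mfap5 and Emilin1. These are 10 of the 24323 genes with a name on the array, chosen by name: every non-control spot that the array annotates with 1 of these names was taken. This gave 15 probes of 60 bases, each with 1 spot on each array.

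Total RNA of tooth and of skin from wild-type (WT) mice at postnatal day 0 (P0) was labelled with Cy3 and hybridised to 1-colour Agilent mouse arrays, 1 array for tooth and 1 for skin, both on the same slide. No treatment or engineered allele is named for either tissue. The study's methods give C57BL/6J as the strain of its wild-type mice, the number of animals behind each RNA is not given, and the methods name day 1 where the labels say day 0. The level of a probe is its log2 processed intensity minus the 75th percentile of its array, and a difference is skin minus tooth, so a positive value is higher in skin. Each tissue had 1 array, so there was no spread between animals, no difference could be tested and none has a replicate check. The ± beside a difference is the error that the extraction software's own model gives for the pair of spots (1 SD, log2). It rests mostly on a multiplicative error of 10% set in that software, and it leaves out dissection, RNA preparation, labelling and variation between mice.

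The arrays were as labelled by their defining markers. Of 6 genes of ameloblasts, the enamel-forming cells, all were higher in tooth, and 5 were not well above background in skin. Krt1, Krt10, Flg and Lor, which mark the outer epidermis, were 337-fold to 7614-fold higher in skin, and all 4 were also measured in tooth. The 75th percentile of intensity was 428 for tooth and 276 for skin, and 56.7% and 52.5% of the 55675 probes were well above background. All 15 probes were free of saturation and outlier calls. In tooth 14 of them were well above background and in skin 13.

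Across the 10 genes, elastin and Mfap5 stood out toward skin and Fbn2 and Emilin1 toward tooth. The other 6 differed by less than 2-fold by the probe with the highest mean. For Fbln1 the 2 other probes were past 2-fold toward tooth (2.08-fold and 3.94-fold). Eln was 5.86-fold and Mfap5 16.6-fold higher in skin. Fbn2 was 3-fold higher in tooth. Emilin1 was 9.72-fold higher in tooth by a skin value that was not well above background. The median difference of the 10 genes was -0.68, and the median over the 17409 named genes with a signal above background on either array was -0.04. By sign alone 3 genes were higher in skin and 7 in tooth, where of the 17409 named genes 8278 and 9131 were. The 3 include Mfap4 (0.18), whose sign depends on the scaling. At 2-fold the count was 2 in skin, where the share over all genes was 14.2%, and 2 in tooth, where it was 15.5%. With 10 genes, 2 in each direction lies near these shares, and the counts are read as no excess. With the probes of each gene averaged, Fbln1 was at -1.32 and the count in tooth was 3, when the share over all genes was 15.5%. In whole tissue, fewer cells that transcribe a gene and less of its RNA per cell cannot be told apart.

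**Figure D1:**
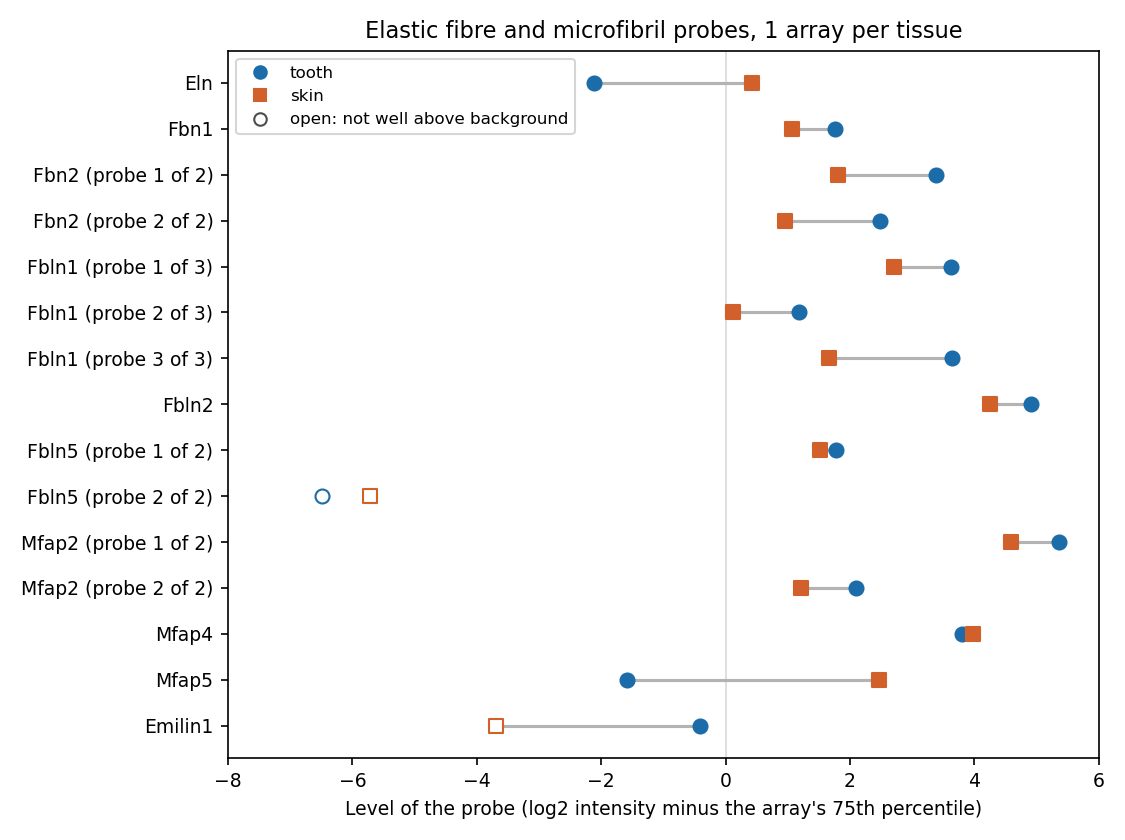
Level of each of the 15 probes on the tooth array (circles) and the skin array (squares), as log2 intensity minus the array's 75th percentile, 1 value per array and no error drawn. Open symbols were not well above background. Eln and Mfap5 lie to the right in skin, and Mfap4 has nearly the same level in both. The second Fbln5 probe is at surrogate values in both tissues, which have no order, the remaining probes lie to the left in skin, and positions of different probes are not comparable because each probe binds with its own strength.

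Eln encodes tropoelastin, the soluble unit that is cross-linked into the elastic core. Its probe had a processed intensity of 98.4 in tooth and 372 in skin. Scaled, this was levels of -2.12 and 0.43, which is a difference of 2.55 ± 0.21. Of all measured genes, 980 (5.63%) lay further toward skin. Eln thus lay below the 75th percentile of the tooth array and above that of the skin array, and it was well above background in both tissues. The probe is targeted to NM_007925 and lies at chr5:135179129-135179188 on the minus strand of mm9, in Eln. The first 30 bases of this probe are shown, since it alone carries the value for elastin.
Eln probe, bases 1 to 30: ataccggaagccttgacgatggatttggtg

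The fibrillins are the large glycoproteins that polymerise into the microfibril itself. Fbn1 is the main fibrillin of adult tissue, and Fbn2 is known as the fibrillin of fetal and early postnatal matrix. Fbn1 had an intensity of 1453 in tooth and 579 in skin, and levels of 1.76 and 1.07, a difference of -0.70 ± 0.20 or 1.62-fold. Its probe (chr2:125126727-125126786, minus strand) had 3744 genes (21.5%) further toward tooth. Fbn2 was read by 2 probes. Its brighter probe (chr18:58168440-58168499, minus strand) had an intensity of 4496 in tooth and 967 in skin, and levels of 3.39 and 1.81. Its other probe (chr18:58171972-58172031) had an intensity of 2408 in tooth and 532 in skin, and levels of 2.49 and 0.95. The differences were -1.58 ± 0.20 and -1.55 ± 0.20, so the probes were 0.04 apart and both placed Fbn2 about 3-fold higher in tooth. Toward tooth, 1586 genes (9.11%) lay further out than the brighter probe. Both fibrillins were thus higher in tooth, Fbn2 by more. Fbn2 differed from Fbn1 by a further -0.89 ± 0.29, or 1.85-fold.

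Fbln5 encodes fibulin-5, which binds tropoelastin and cell-surface integrins and is needed to organise elastin on microfibrils. Its measured probe (chr12:102988153-102988212, minus strand) had an intensity of 1472 in tooth and 794 in skin. Levels were 1.78 and 1.52, a difference of -0.26 ± 0.20, so the tissues were 1.2-fold apart and near the error of the pair of spots. A further Fbln5 probe at chr12:102984878-102984937 had surrogate intensities of 4.77 and 5.25, was not above background on either array and gives no difference. Fbln2 encodes fibulin-2, a protein of basement membranes and of the border between elastin and microfibrils. Its probe (chr6:91222118-91222177) had an intensity of 12907 in tooth and 5241 in skin. Levels were 4.91 and 4.25, a difference of -0.67 ± 0.20 or 1.59-fold higher in tooth. Neither of these fibulins showed the skin difference of the elastin they bind.

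Fbln1 encodes fibulin-1, a component of elastic fibres and basement membranes that is known to be made in splice forms with different carboxy-terminal ends. It was read by 3 probes, and they gave unequal differences. The brightest on average (chr15:85115998-85116057) had an intensity of 5278 in tooth and 1805 in skin, levels of 3.62 and 2.71 and a difference of -0.92 ± 0.20. A second probe of the same RefSeq transcript, NM_010180, at chr15:85115550-85115609, had an intensity of 968 in tooth and 300 in skin, levels of 1.18 and 0.12 and a difference of -1.06 ± 0.21. The probes of this transcript were thus 0.14 apart. The third probe is targeted to an Ensembl transcript, ENSMUST00000109432, and lies upstream at chr15:85081927-85081986. It had an intensity of 5329 in tooth and 873 in skin, levels of 3.64 and 1.66 and a difference of -1.98 ± 0.20. This was 3.94-fold higher in tooth, against 1.89-fold and 2.08-fold by the other two. It stood 1.06 ± 0.29 and 0.92 ± 0.29 from them, gaps that percentile, median and spike-in scaling cannot move. All 3 probes were well above background in both tissues. The transcript end that each probe reads was not analysed here. The sequences of a probe from each transcript are shown because the size of the Fbln1 difference turns on the probe used. Whether the transcripts or the probes themselves differ was not tested. They hold 50% GC each.
Fbln1 probe of NM_010180: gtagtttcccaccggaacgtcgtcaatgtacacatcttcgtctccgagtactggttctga
Fbln1 probe of ENSMUST00000109432: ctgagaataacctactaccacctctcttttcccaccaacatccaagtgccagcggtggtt

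Mfap2 and Mfap5 encode the paired microfibril-associated glycoproteins MAGP-1 and MAGP-2, which bind fibrillin, and they differed in opposite directions. Mfap5 had an intensity of 142 in tooth and 1522 in skin. Levels were -1.59 and 2.46, a difference of 4.06 ± 0.21 or 16.6-fold, and 511 genes (2.94%) lay further toward skin. This was the largest of the 9 differences measured on both arrays, under each setting run. Emilin1, not well above background in skin, is left out of that order. Mfap2 was read by 2 probes. Its brighter probe (chr4:140571828-140571887) had an intensity of 17556 in tooth and 6640 in skin, levels of 5.36 and 4.59 and a difference of -0.77 ± 0.20. Its other probe (chr4:140570920-140570979) had an intensity of 1826 in tooth and 645 in skin, levels of 2.09 and 1.22 and a difference of -0.87 ± 0.20. The Mfap2 probes were 0.10 apart and gave 1.71-fold and 1.83-fold higher signal in tooth. The difference of Mfap5 lay 4.83 ± 0.29 above that of Mfap2, a 28.4-fold change in the ratio of the pair between the tissues. That contrast uses the brighter Mfap2 probe. The second probe of Mfap2 (53.3% GC), whose difference was 0.10 from it, is shown.
Mfap2 probe, second of 2: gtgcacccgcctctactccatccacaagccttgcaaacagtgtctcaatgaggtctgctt

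Mfap4 encodes a glycoprotein with a fibrinogen-like domain that binds elastin and fibrillin. Its probe (chr11:61302147-61302206) had an intensity of 5964 in tooth and 4359 in skin, levels of 3.80 and 3.98 and a difference of 0.18 ± 0.20. This is below the error of the pair of spots. Its sign turned when the arrays were scaled by their medians (-0.07) or by the spike-in transcripts (-0.44), so Mfap4 has no settled direction.

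Emilin1 encodes elastin microfibril interface-located protein 1, named for its place in the fibre. It had an intensity of 322 in tooth and 21.4 in skin. The skin value was significant over background by the software's lenient call but not well above it by the stricter call. On the scaled log2 axis the levels were -0.41 and -3.69, and the lowest signal called well above background on the skin array was -3.73. The skin value lay above that lowest signal, so the fold rests on the probe's own dim value. By it Emilin1 was 9.72-fold higher in tooth, which is an estimate and not a lower limit. The size depends on how dim spots are treated. Normexp correction of the raw intensities gave a difference of -1.46, and the software's error for this pair was 0.43. That correction also adds an offset of 50, which by itself shrinks the ratios of dim spots. The part of the offset in the smaller difference was not separated. In mm9 the probe's ends span 457 bases (chr5:31222545-31223001) although the probe has 60, so it is not 1 continuous stretch of that sequence. Under normexp correction Fbn2 was further toward tooth (-1.61) than Emilin1. The probe is shown because it alone carries the Emilin1 value, and it holds 48.3% GC.
Emilin1 probe: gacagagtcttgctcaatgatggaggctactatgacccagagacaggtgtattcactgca

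Differences of genes on the same pair of arrays can be set against each other, and percentile, median and spike-in scaling then cancel. Quantile normalization and background correction do not cancel. Under normexp correction Eln was at 1.98 and Mfap5 at 3.45, against 2.55 and 4.06 as reported. Fbn1 (-0.73) and Fbln5 (-0.28) hardly moved, so the contrasts of Eln and Mfap5 with them were smaller there. The pairs given here were chosen after the values were seen, and none holds Emilin1. Between the tissues the ratio of Eln to Fbn1 differed 9.49-fold (3.25 ± 0.30, log2) and that of Eln to Fbln5 differed 7-fold (2.81 ± 0.30), both toward skin. Mfap5 against Fbn1 gave 27-fold (4.75 ± 0.29). Mfap5 also exceeded Eln, by 1.51 ± 0.30. Mfap4 lay 0.95 ± 0.29 above Mfap2, so the ratio of these 2 was 1.93-fold apart although each was within 2-fold alone. Fbln1 minus Fbln2 was -0.25 ± 0.29 and Fbn1 minus Fbln5 was -0.44 ± 0.29, both less than 2 of these errors from 0. The Fbln1 value there is from its brightest probe on average (-0.92). By its probe of the Ensembl transcript Fbln1 was at -1.98, well below Fbln2 at -0.67, so closeness of these 2 fibulins depends on the probe.

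**Figure D2:**
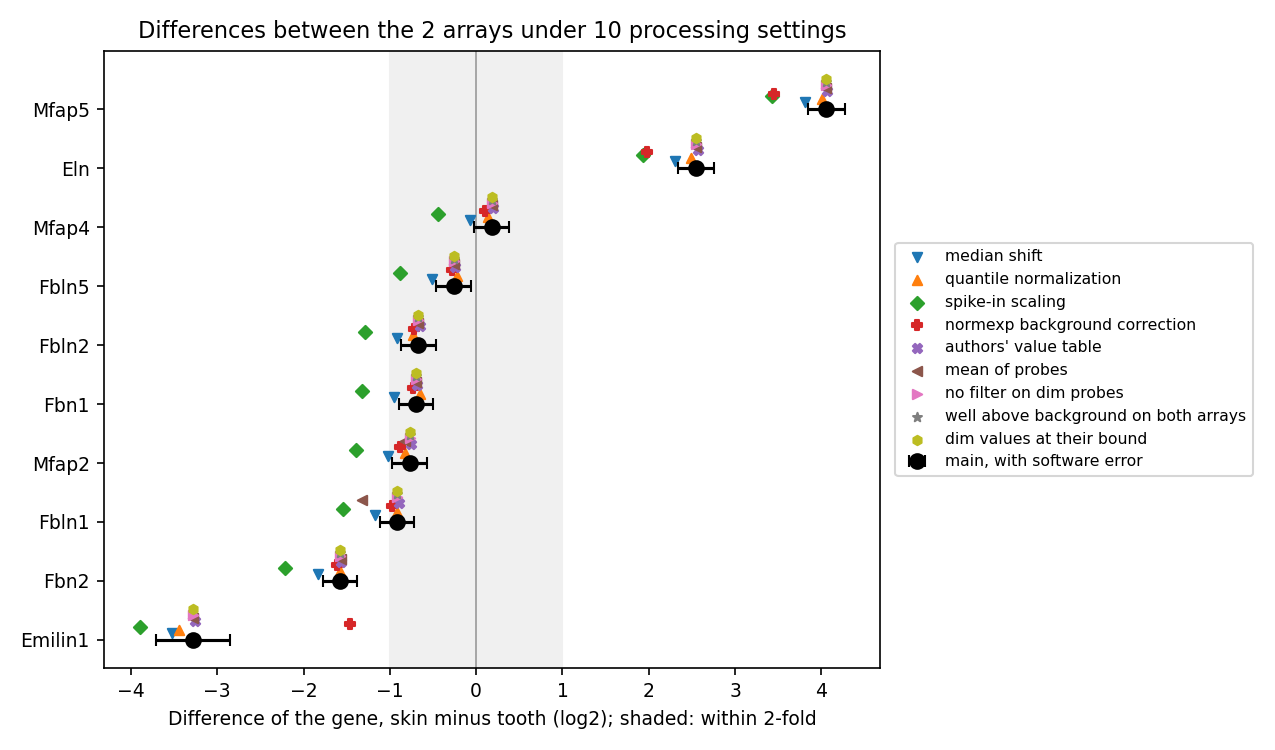
Difference of each gene, skin minus tooth on the log2 axis, with the reported value and the software's error (black, 1 SD) and the values under 9 other ways of processing (coloured). Mfap5 and Eln stay beyond 2-fold toward skin and Fbn2 and Emilin1 beyond 2-fold toward tooth wherever they were measured, and spike-in scaling moves every gene to the left.

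The scaling of the arrays bears on the 6 genes with small differences. The spike-in transcripts had nearly equal signals on the 2 arrays (a median difference of -0.01 before scaling), while the 75th percentiles were 1.55-fold apart. Scaling by spike-ins moved the median of all genes by -0.62 and scaling by the array median moved it by -0.25. Under spike-in scaling 6 of the 10 genes were at least 2-fold higher in tooth and 2 in skin, when 32.4% and 9.04% of all genes were. Under the median shift the counts were 4 and 2, when 20.1% and 11.6% of all genes were. Fbn1 passed 2-fold toward tooth under spike-in scaling (-1.32), and so did Fbln2 (-1.29). Mfap2 passed it under spike-in scaling (-1.39) and the median shift (-1.02). Fbln1 passed it under both (-1.54 and -1.17) and when its 3 probes were averaged (-1.32). Fbln5 did not pass it under any of the 10 settings, with values from -0.88 to -0.22. Eln ranged from 1.93 to 2.57, Mfap5 from 3.43 to 4.07 and Fbn2 from -2.21 to -1.57, and each stayed past 2-fold in all 10.

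Of the other genes of the pathway, 48 were listed in 9 groups, and 47 were on the array, all but Hmcn2. Signal above background was found for 45 of them, 41 on both arrays. With dim values as measured, 22 of the 45 were higher in tooth by 2-fold or more, against 15.5% of all genes, and 4 were higher in skin, against 14.2%. With dim values at their bound the counts were 21 and 4, against 13.3% and 14% of all genes, since Adamts6 has no fold. Their median was -0.99. Under spike-in scaling the counts were 29 and 4, when 32.4% and 9.04% of all genes were past 2-fold. The list was drawn up with earlier results of these arrays known, and its genes do not vary independently.

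Among the genes closest in family to the 10, the direction was again mixed. The other fibulins included Efemp1 (fibulin-3), 8.25-fold higher in skin (3.05), and Efemp2 (fibulin-4), which brings lysyl oxidase to elastin and was 6.45-fold higher in tooth (-2.69). Fbln7 was 25.2-fold higher in tooth (-4.65, and -5.59 by its other probe), and Hmcn1 was within 2-fold (-0.07). Of Emilin1's relatives, Emilin2 (-1.93) and the endothelial Mmrn2 (-2.31) were higher in tooth, as Emilin1 was, whereas Mmrn1 was higher in skin (1.80, with its other probe not measured) and Emilin3 was within 2-fold (0.29). Of the other genes named Mfap, which share the name rather than the structure of Mfap2 and Mfap5, Mfap3l was 12.7-fold higher in skin (3.67). Mfap3 (-0.94), Mfap1a (-0.08) and Mfap1b (0.54) were within 2-fold. The latent TGF-beta binding proteins resemble fibrillins, and Ltbp2 (-1.68) and Ltbp3 (-1.77) were higher in tooth. Ltbp1 (0.56) was within 2-fold, and Ltbp4 had a level of 4.56 on both arrays.

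The lysyl oxidases cross-link elastin and collagen, and most went the other way from Eln. Their median was -2.42, with 4 of 5 at least 2-fold higher in tooth. Lox, the founding member, had levels of 0.16 and -1.35 in tooth and skin (a difference of -1.51, and -1.91 by its other probe). Loxl2 (-2.42) and Loxl4 (-3.12) were 5.37-fold and 8.7-fold higher in tooth, and Loxl3 was at least 6.14-fold higher. Loxl1, the family member known for its tie to elastic fibres, was within 2-fold by both of its probes (0.09 and 0.12). None of the 5 came near the 5.86-fold skin difference of Eln.

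Of the 8 ADAMTS and ADAMTS-like genes, several of which bind fibrillin, 7 were measured, all but Adamtsl3. Adamtsl2 (-2.87), Adamts10 (-1.91) and Thsd4 (-1.77) were at least 2-fold higher in tooth. Adamts6 was measured in tooth only, at a level too low to give a fold. Adamts17 (-0.44), Adamtsl4 (0.69) and Adamtsl5 (0.52) were within 2-fold, and the median of the 7 was -1.35, or -0.44 with the dim value at its bound. Of the TGF-beta ligands, which microfibrils hold in latent form, Tgfb1 (-2.09) and Tgfb2 (-1.94) were higher in tooth and Tgfb3 (-0.47) was within 2-fold. Of 8 integrin chains that bind fibrillins, fibulin-5 or latent TGF-beta, Itgb3 (-2.50), Itgb6 (-1.92) and Itgav (-1.41) passed 2-fold toward tooth. The other 5 were Itga5 (-0.96), Itga9 (-0.99), Itgb1 (-0.84), Itgb5 (-0.82) and Itga8 (0.46). Of the proteases able to cleave elastin, Mmp9 was at least 67.8-fold higher in tooth, Ctsk 29.6-fold (-4.89) and Mmp2 3.23-fold (-1.69). Mmp9 and Ctsk are also products of osteoclasts, the bone-resorbing cells. Mmp7 was at least 2.34-fold higher in skin, Elane (-0.06) and Ctss (0.48) were within 2-fold, and Mmp12 was not above background on either array.

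**Figure D3:**
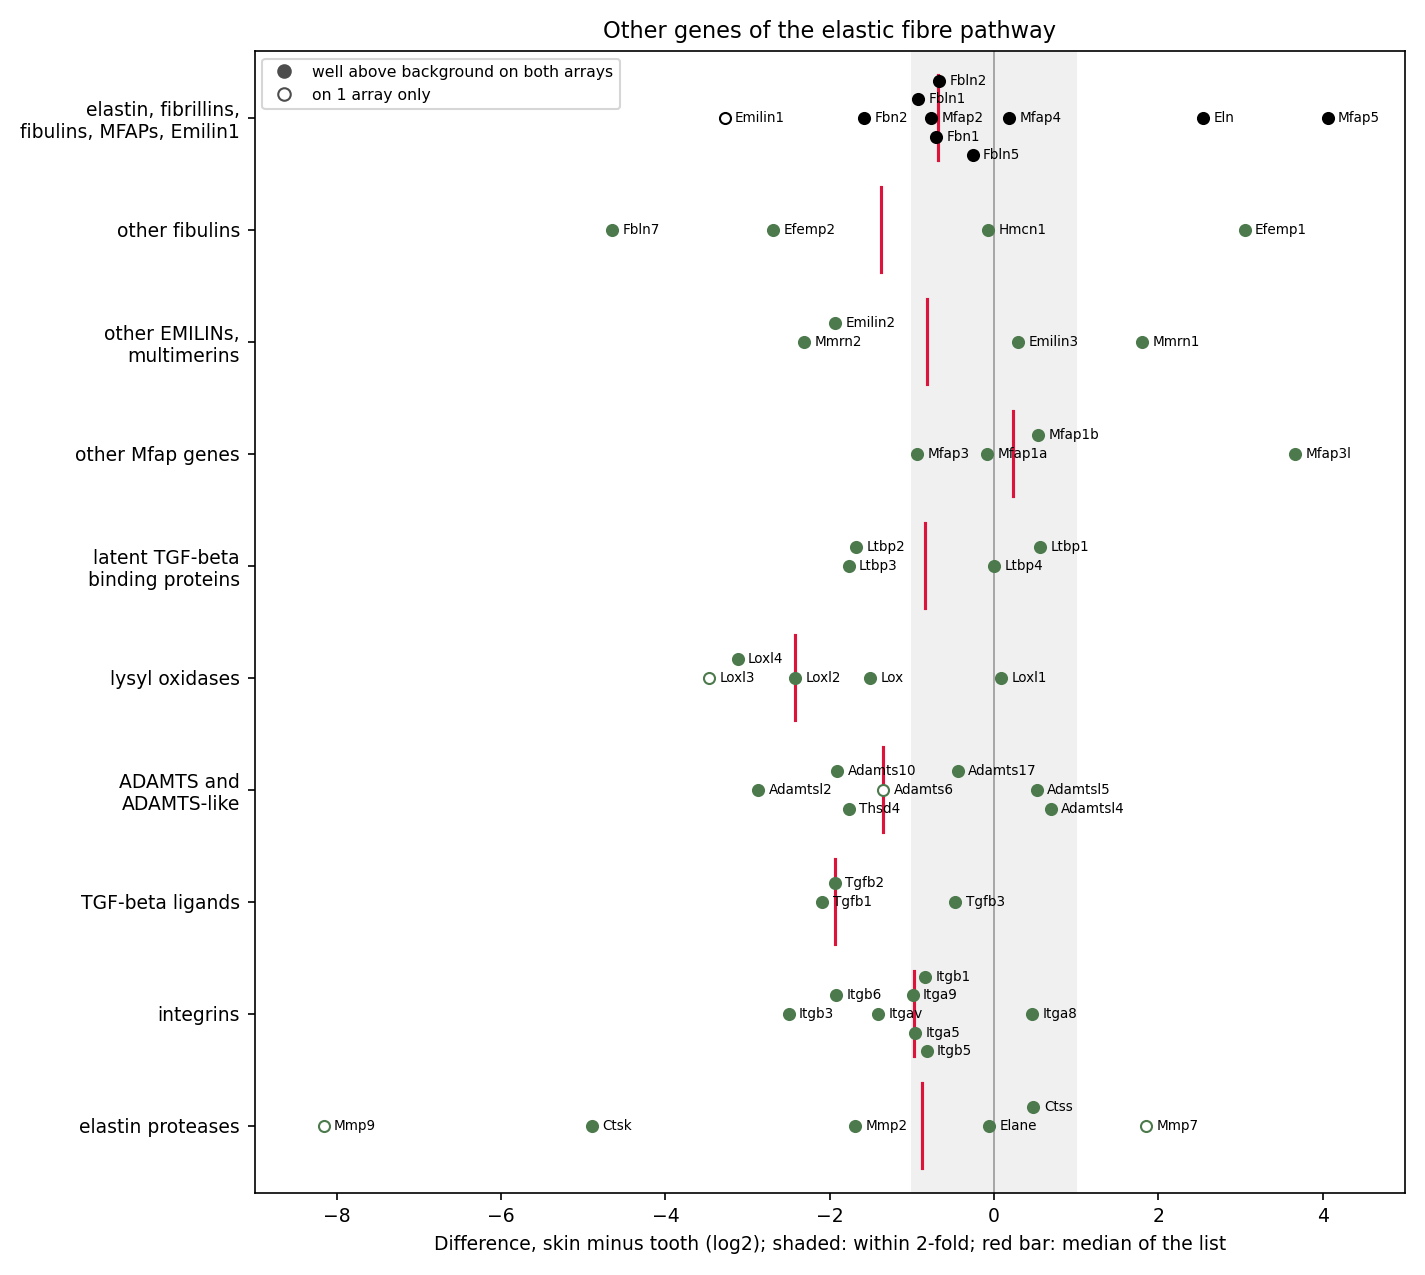
Differences, skin minus tooth (log2), of the 10 elastic fibre and microfibril genes (black) and of 45 other genes of the pathway in 9 groups (green), 1 point per gene. Filled points were well above background on both arrays, open points on 1 only, and red bars are the group medians. Open points are drawn at the measured value, although their fold is only a bound, or for Emilin1 an estimate from a dim value. As drawn, 22 of the 45 lie beyond 2-fold toward tooth and 4 toward skin, and Adamts6 among the 22 has no fold.

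Markers of the cell types that could make these transcripts also differed between the arrays. Of 11 fibroblast and mesenchyme markers, 6 were at least 2-fold higher in tooth and 0 in skin, with a median of -1.34 and a range from -3.17 (Col1a1) to 0.84 (Thy1). Their summed level was 10.66 in tooth and 8.69 in skin (log2). Col1a2 leads that sum on both arrays (levels of 9.51 and 7.01), followed in tooth by Col1a1 (8.85), so the sum mainly follows collagen genes. On the same list Col3a1 (0.13) and Col6a1 (0.26) were, like Thy1, not lower in skin. Of 5 smooth muscle markers, also from cells that make elastin, 3 were higher in tooth and 0 in skin (median -1.72, summed level 6.37 and 4.90), from Cnn1 at -4.30 to Myh11 at 0.18. Of 5 endothelial markers 3 were higher in tooth (median -2.08, or -1.47 with the dim value at its bound, from Cdh5 at -2.70 to Pecam1 at 0.50, summed level 4.97 and 5.26). Kdr, which leads that sum, was at 0.43 by its brighter probe and -2.19 by the other.

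Lists for other cells of either tissue moved as well, and their ranges and medians use dim values as measured unless a bound is named. Fat genes (5 of 5 at least 2-fold higher in skin, from Pparg at 1.94 to Cfd at 8.23) had a median of 4.07 and a summed level of 0.60 in tooth and 4.16 in skin. Skeletal muscle genes (6 of 6, from Myog at 2.19 to Tnnt3 at 3.82) had a median of 3.37 and a summed level of 3.14 and 6.46. Epidermal genes (5 of 6, from Krt5 at 0.94 to Flg at 12.89) had a median of 8.75 and a summed level of 9.04 and 12.22. These lists were higher in skin, as Eln and Mfap5 were. In the other direction, with Fbn2 and Emilin1, lay bone and dentin genes (6 of 6, from Dspp at -13.63 to Sp7 at -3.87), with a median of -7.99 (-7.11 at the bounds) and a summed level of 8.46 in tooth and -0.56 in skin. Ameloblast genes (6 of 6, from Amelx at -16.15 to Klk4 at -5.92) had a median of -10.81 (-8.98 at the bounds) and a summed level of 11.08 and -1.89. Dental mesenchyme genes (4 of 5, from Lhx8 at -7.58 to Lhx6 at 0.09) had a median of -5.01 (-2.97 at the bounds) and a summed level of 4.53 and 3.81. Lhx6, which leads that sum, had 2 other probes, each dim on at least 1 of the arrays, and they differed in opposite directions. Of the 4 cartilage genes measured, 3 were higher in tooth, from Hapln1 at -6.22 to Col9a1 at 0.70 (median -3.43, or -2.87 at the bounds, summed level 2.40 and -1.52). The other Col9a1 probe, which was dim on 1 array or both, had a lower value in skin. The 3 dental follicle and periodontal ligament genes stayed within 2-fold, from Pthlh at -0.74 to Aspn at 0.99 (median 0.51, summed level 4.01 and 4.30). The 8 housekeeping genes ranged from -0.76 to 0.33 (median 0.02, summed level 10.62 and 10.76). The part of any of these cells in the differences of the 10 genes was not tested.

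**Figure D4:**
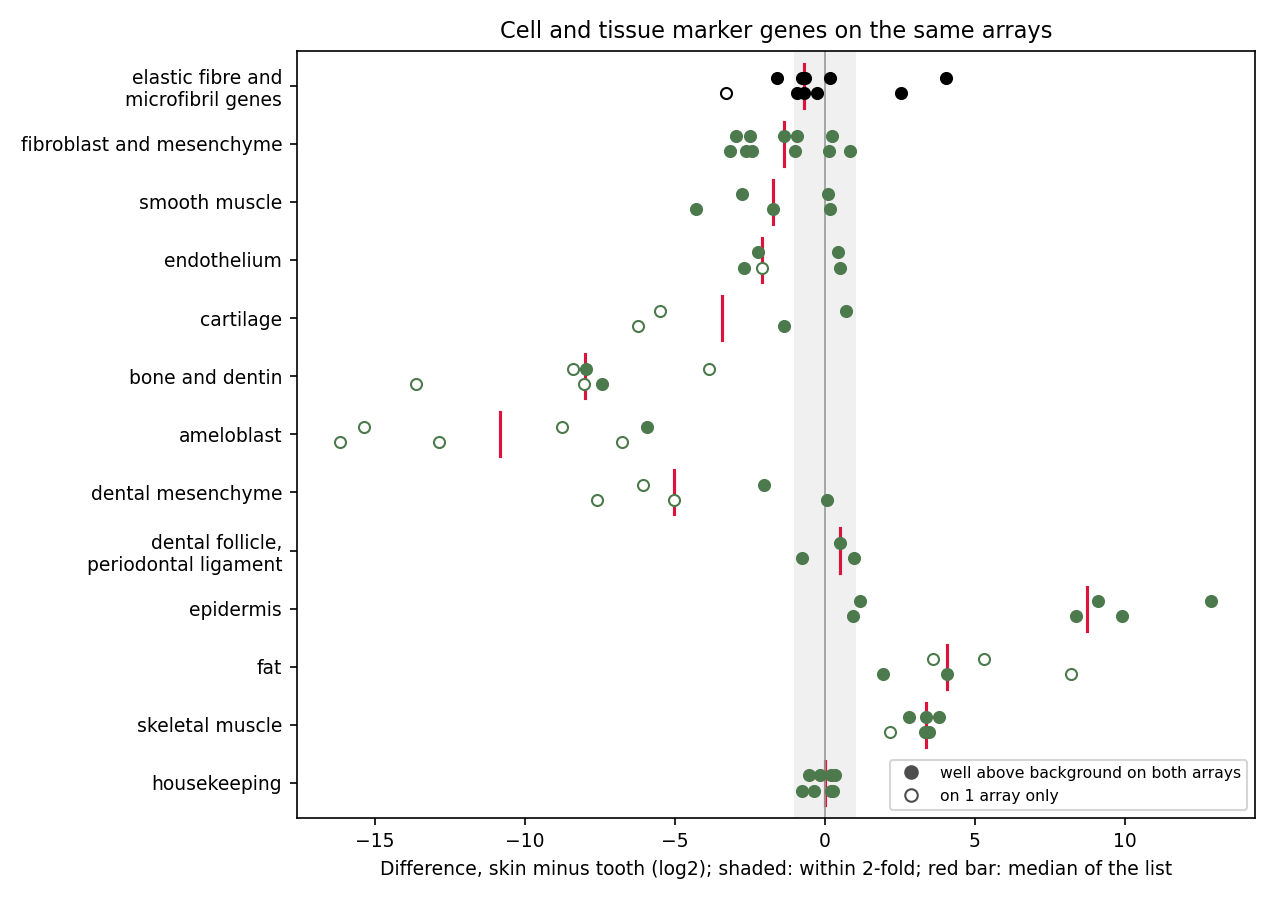
Differences, skin minus tooth (log2), of the 10 elastic fibre and microfibril genes (black) and of marker genes for cells and tissues that the samples could hold (green), 1 point per gene, with red bars at the list medians. Open points were well above background on 1 array only and are drawn at the measured value. The fibroblast list has a median of -1.34 and ends at 0.84 (Thy1), Eln lies at 2.55 and Mfap5 at 4.06.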

How the data were processed

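RNA of P0 wild-type tooth and skin was read on 1 Agilent array each. The deposited values are spot intensities that, per the file headers, came from Agilent Feature Extraction 10.7.3.1, with background subtracted, trends within the array removed and very dim values replaced by surrogates. The software's deposited calls (background, saturation, outlier) are 0 or 1. The authors also deposited a value table, in which each value is the ratio of that intensity to 1 factor per array (430.7 for tooth, 274.5 for skin). The study's methods name GeneSpring, a filter on very low signal and a percentile shift.

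From these files, outlier and control spots were left out, spots of a probe were averaged on the log2 scale and each array's 75th percentile over non-control probes was subtracted. Very dim values therefore carry little order, and all values are relative to the array they came from. A probe counted as measured when the software called over 50% of its spots well above background, and the probe with the highest mean stood for a gene. A gene had to be measured on 1 array or both. Where 1 array was dim, the fold is a bound against the higher of the dim value and the lowest signal called well above background there. For Emilin1 the dim value was the higher, so its fold is the measured one and no lower limit. For probes with 8 or more spots, spot scatter gives a difference an SD of 0.11. The number of arrays limits the precision.

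Of 33184 named probes, 27235 (82.1%) matched a RefSeq table of GRCm38.p6 by accession, used for names only. Coordinates are in mm9, per the file headers, and the exon or UTR under a probe was not analysed here. Sequences of 5 of the 15 probes are printed from the deposited array annotation, and the others are not reported here.

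The named genes are the 10 members with every probe, each pathway gene (those 2-fold apart with values, the rest by name), and the extremes of the marker lists. The members and lists were chosen with earlier results of these data known. No test was run. The 9 alternatives were a median shift, quantile normalization, spike-in scaling, normexp correction (offset 50), the authors' table, the mean of a gene's probes, no filter, measurement on both arrays, and dim values at their bound. Spot averaging and the percentile, median, quantile and spike-in scalings were tested on simulated arrays. All probes there counted as well above background, and changes were put into bright probes only. The treatment of dim signal, the choice of probe and normexp correction were not tested that way. Python 3.11.15, numpy 2.4.6, pandas 2.3.3, matplotlib 3.10.9, R 4.3.3 and limma 3.58.1 were used.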

Additional observations from a re-analysis of the deposited data

How the results depend on the processing

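The median difference of the 10 elastic fibre and microfibril genes moved from -0.68 to -0.93 under the median shift and -1.31 under spike-in scaling, when the median of all genes was -0.29 and -0.67. The number at least 2-fold higher in tooth moved from 2 to 4 under the median shift and 6 under spike-in scaling, and to 1 when only genes well above background on both arrays were kept, which leaves out Emilin1. The number at least 2-fold higher in skin was 2 under each alternative run, when the share of all genes ranged from 9.04% to 15.1%. The median of the other pathway genes moved from -0.99 to -1.24 (median shift) and -1.61 (spike-in scaling). The count of the 10 genes in tooth was 3 when probes were averaged, against 15.5% of all genes. The pathway count in tooth was 27 (median shift) and 29 (spike-in scaling) against 22, each of 45. The shares of all genes were 20.1%, 32.4% and 15.5%. Under the other alternatives the pathway count was from 19 to 23, of 41 to 47 genes. The share of all genes there ran from 9.6% to 16.7%. Mfap4 was the single gene of the 10 whose sign turned, in 2 of 10 settings. No paired analysis was possible because each tissue had 1 array. For the same reason no array could be left out, and no value here has a spread between animals. Dim signal limits Emilin1 in skin (21.4, against a lowest signal well above background of 20.8) and the second Fbln5 probe on both arrays.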
